A study of Mus musculus with 8 samples.

Results

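Adhesion G protein-coupled receptors are cell surface receptors that read contact with matrix and with neighbouring cells. The family is taken here as the 27 protein-coding genes, among 54532 genes of the data set, whose symbol starts with Adgr. Their transcripts were counted by bulk RNA-seq in lung endothelial cells (ECs) of wild-type C57BL/6J mouse pups at postnatal day 14. One group of 4 libraries came from pups reared in normoxia (21% O2) and the other group of 4 from pups reared in hyperoxia (80% O2) since birth, a model of bronchopulmonary dysplasia. Nursing dams were exchanged between both kinds of cage each day, and neither group carried an engineered allele. ECs were taken from lung suspensions with CD31-coated beads after cells bound to CD45-coated beads had been removed, so RNA of any other lung cell carried along with the ECs is part of the counts. How many pups went into a library is not given in the labels, so p-values measure only the spread between these libraries.

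The receptors of this family combine a long extracellular part, built from adhesion modules, with the membrane-spanning bundle of a G protein-coupled receptor. A GAIN domain just outside the membrane cuts the chain at a short motif, the GPCR proteolysis site (GPS), and the stretch behind the cut can act as a tethered agonist when the outer fragment is pulled away by a ligand. In vessels the family is known for Adgra2, a co-receptor for Wnt7 signals in brain ECs, for Adgrl4, an endothelial receptor linked to angiogenesis, and for Adgrf5, which takes part in endothelial barrier function and, in alveolar type 2 cells, restrains surfactant secretion.

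The libraries held 16098086 to 18300730 counts, of which 0.654% to 0.727% fell on the family. Libraries of 1 group differed by more than counting noise (5.08 to 17.9 as chi-square over its degrees of freedom). All 18 pan-endothelial markers were measured, and their summed level ran from 22139 to 22868 CPM (the count scaled by the normalised library size) in normoxia and from 22148 to 24068 CPM in hyperoxia. Cdh5, the VE-cadherin gene, had 4121 ± 175 CPM in the normoxia group against 4035 ± 140 CPM in the hyperoxia group (SD, n = 4 each). The CD31 gene Pecam1 had 2902 ± 120 against 2822 ± 112 CPM. Marker RNA of some other cell types differed between the groups. The summed level of 12 type 2 pneumocyte markers ran from 580 to 764 CPM in normoxia and from 1236 to 2989 CPM in hyperoxia, with the lowest hyperoxia value in hyperoxia 3, and that of 10 fibroblast markers from 353 to 476 CPM and from 578 to 1062 CPM. In such bulk samples fewer cells of a type and less RNA per cell cannot be told apart.

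Of the 27 genes, 15 had enough counts to be tested, and 12 did not. Hyperoxia came with higher Adgrg1, Adgrg3, Adgrl2 and Adgrl3 and with lower Adgrf5, Adgre5 and Adgrl1. These are 7 of the 15 tested genes (46.7%) at an adjusted p under 0.05 in edgeR's quasi-likelihood test with Benjamini-Hochberg adjustment over 15564 genes, where 35.6% of all genes passed. The 4 higher genes are 26.7% of those tested against 18.5% of all genes, and the 3 lower ones 20% against 17.1%. Only Adgrg1 also met the fold threshold, a log2 fold change of 1 or more in either direction, so 1 of 15 (6.67%) stands beside 6.98% of all genes. The groups did not overlap in 6 of the 15 (40%), and in 35.4% of all genes. These shares stand near those of all genes. The median log2 fold change of the 15 receptors was 0.09, beside -0.00400 for all genes tested.

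**Figure D1:**
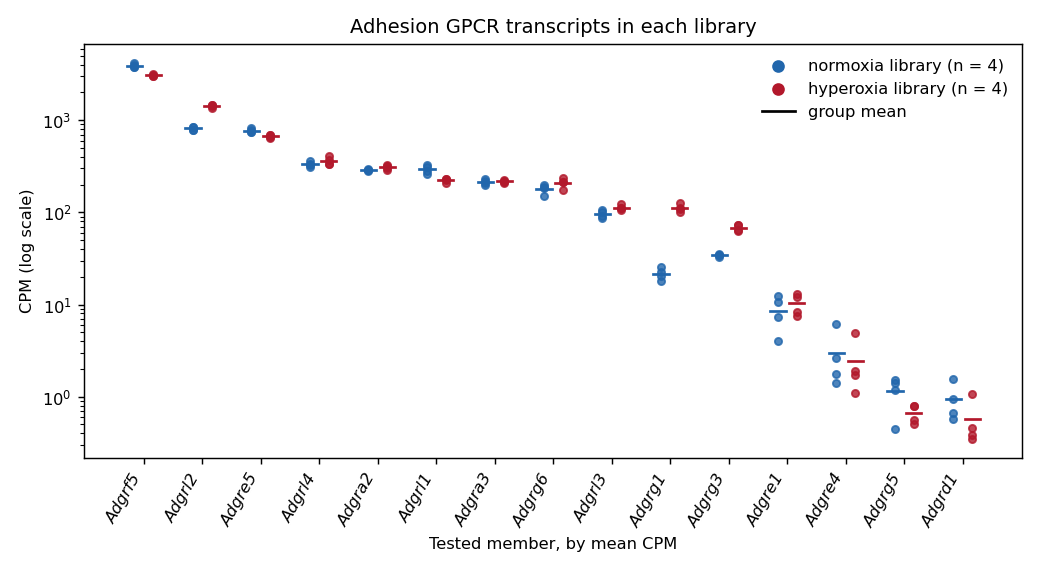
CPM of the 15 tested adhesion receptor genes on a log scale, ordered by mean level, with 1 point per library (normoxia blue, hyperoxia red, n = 4 each) and a bar at each group mean. The 4 hyperoxia points of Adgrg1 lie between 101 and 127 CPM, far above the normoxia points at 18.04 to 25.5 CPM, while the points of Adgrl4, Adgra2 and Adgra3 overlap.

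**Figure D2:**
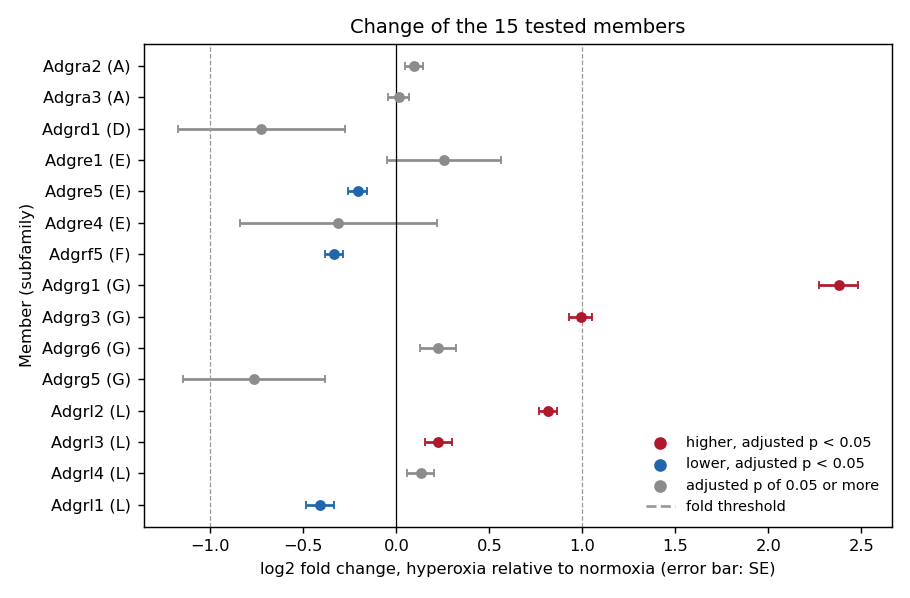
Log2 fold change of the 15 tested genes, hyperoxia relative to normoxia, with the SE as bar, grouped by subfamily (the letter in brackets). Dashed lines mark a log2 fold change of 1 in either direction, past which only Adgrg1 lies among the genes with an adjusted p under 0.05.

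The self-cleavage site, a feature of many receptors of this family, was searched in the coding sequences of the GENCODE M21 annotation (mouse build GRCm38), since the deposited gene coordinates of 27 of the 27 receptors are those of that annotation. The pattern was a cysteine, 1 or 2 residues, a second cysteine, up to 3 residues, then histidine, leucine or a like residue, and threonine or serine. It was found in 18 of the 27 genes, in 12 of the 15 tested ones and in all 7 that passed the test. The 7 sites are printed here as 48 coding bases from 5′ to 3′, with the codons of histidine, leucine and threonine in capitals. Cleavage is known to fall between the leucine and the threonine.
Adgrf5: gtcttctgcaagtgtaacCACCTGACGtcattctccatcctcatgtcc
Adgre5: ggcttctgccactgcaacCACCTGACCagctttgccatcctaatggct
Adgrl1: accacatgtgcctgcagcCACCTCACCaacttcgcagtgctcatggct
Adgrl2: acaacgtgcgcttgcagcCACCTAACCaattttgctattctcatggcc
Adgrl3: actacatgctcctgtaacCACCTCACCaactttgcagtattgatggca
Adgrg1: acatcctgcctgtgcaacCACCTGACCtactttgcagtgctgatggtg
Adgrg3: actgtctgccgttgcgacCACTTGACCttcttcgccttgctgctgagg

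These sites lie in exons. That of Adgrf5 is chr17:43450368-43450415 on the plus strand, in exon 17 of 21. That of Adgre5 is chr8:83725880-83725927 on the minus strand, in exon 13 of 20. The latrophilin sites are chr8:83933988-83934035 on the plus strand for Adgrl1 (exon 14 of 23), chr3:148837579-148837626 on the minus strand for Adgrl2 (exon 13 of 24) and chr5:81694565-81694612 on the plus strand for Adgrl3 (exon 15 of 25). In Adgrg1 (chr8:95007624-95008373) and Adgrg3 (chr8:95036647-95036828), both on the plus strand, the printed stretch of 48 bases is split by an intron. The histidine is codon 381 of 687 in Adgrg1 and codon 243 of 542 in Adgrg3, which leaves 306 and 299 codons behind it. In the latrophilins Adgrl1, Adgrl2 and Adgrl3 the stretch behind the histidine is longer, at 680, 660 and 659 codons. The 9 genes with no match include Adgra2 and Adgra3, and no match says only that these letters were not found.

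Levels of different genes were compared per length, as FPKM (fragments divided by the gene length in kilobases and by the size of the library). In normoxia Adgrf5 led with 432 ± 22.0 FPKM, followed by Adgre5 with 204 ± 9.54, Adgrl4 with 71.8 ± 4.33, Adgrl2 with 56.9 ± 2.34 and Adgra2 with 49.7 ± 1.01 FPKM (SD, n = 4). No neighbours in this order overlapped. In hyperoxia Adgrl2 stood at 100.5 ± 3.75 FPKM, above Adgrl4 at 78.8 ± 8.32 FPKM, and again without overlap (95.6 to 103 against 71.6 to 89.8 FPKM), so their order was reversed. Adgra3 and Adgrl1, at 26.6 ± 1.19 and 25.8 ± 1.36 FPKM in hyperoxia, did overlap there. Averaged over both groups, Adgrf5 ranked 61 and Adgre5 164 among 17447 protein-coding genes with a count, and 12 receptors reached a mean of at least 1 FPKM.

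The summed transcript level of the family was 908 ± 30.1 FPKM in normoxia and 863 ± 32.2 FPKM in hyperoxia (SD, n = 4 each), with ranges of 875 to 946 and 825 to 895 that overlap. Its make-up differed between the groups. The share of Adgrf5 in that sum was 47.6 ± 1.07% in normoxia and 39.7 ± 0.616% in hyperoxia, that of Adgrl2 was 6.26 ± 0.115% and 11.7 ± 0.440%, and that of Adgrg1 was 0.437 ± 0.0774% and 2.39 ± 0.274%. Each normoxia library held 7.40 to 7.80 times as much Adgrf5 as Adgrl2 per length, and each hyperoxia library 3.25 to 3.56 times as much. Shares and ratios of FPKM are given as descriptions, with no test.

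**Figure D3:**
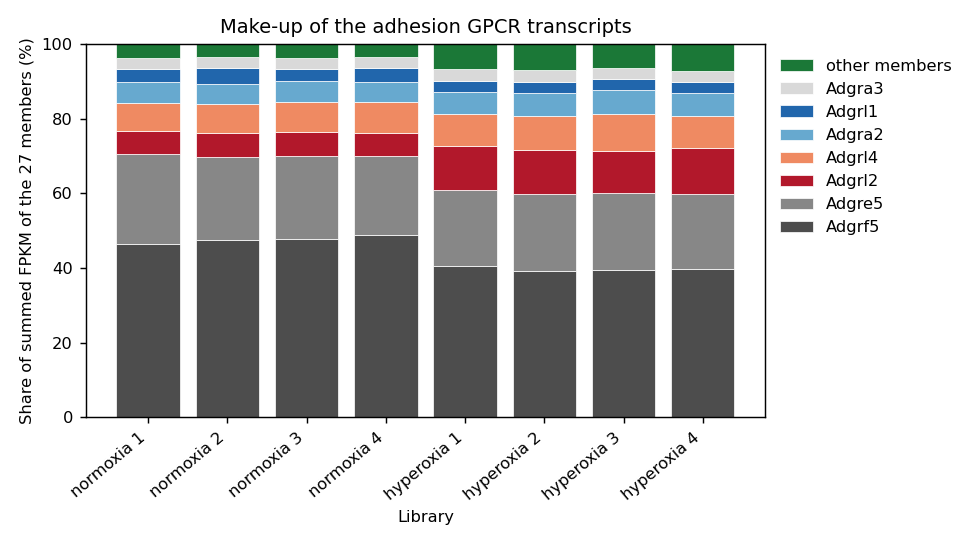
Share of the summed FPKM of the 27 adhesion receptor genes held by each gene, in percent, with 1 stacked bar per library. Adgrf5 (dark grey) takes 47.6% on average in normoxia and 39.7% in hyperoxia, and Adgrl2 (red) widens from 6.26% to 11.7%.

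Adgrg1, also known as GPR56, binds collagen III and transglutaminase 2, and is studied in the developing cortex and in cytotoxic lymphocytes. The gene (ENSMUSG00000031785, chr8:94974751-95014217, plus strand) had 22.5, 18.04, 25.5 and 20.3 CPM in normoxia 1 to 4. In hyperoxia 1 to 4 it had 110, 112, 101 and 127 CPM. All 4 hyperoxia libraries lay above all 4 normoxia libraries. It rose from 21.6 ± 3.18 to 112 ± 10.8 CPM (SD, n = 4 each), a ratio of the means of 5.20, with a log2 fold change of 2.38 (SE 0.105, edgeR adjusted p = 1.31e-07). No exon of another annotated gene overlaps it. The summed level of 10 lymphocyte markers ran from 47.2 to 115 CPM in normoxia and from 62.5 to 102 CPM in hyperoxia, and 0 of the 9 tested passed in edgeR. Of 12 type 2 pneumocyte markers 10 were higher and 0 lower, and of 9 tested fibroblast markers 6 were higher and 0 lower. The part of these or any other cells in the Adgrg1 level was not tested.

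Adgrg3, or GPR97, is known from granulocytes and lies next to Adgrg1 on the same strand (ENSMUSG00000060470, chr8:95017692-95045250), with 3474 bases between the end of one gene and the start of the other. It had 33.2, 35.4, 34.2 and 34.8 CPM in normoxia 1 to 4. It had 63.3, 72.9, 72.6 and 64.6 CPM in hyperoxia 1 to 4. The normoxia libraries lay close together, and every hyperoxia library lay well above them. Adgrg3 rose from 34.4 ± 0.942 to 68.3 ± 5.11 CPM (SD, n = 4 each), with a log2 fold change of 0.99 (SE 0.0604, edgeR adjusted p = 1.13e-06), just under the fold threshold. The count of genes past both thresholds therefore turned on single libraries. Adgrg3 reached a log2 fold change of 1.002 without normoxia 2, 1.03 without hyperoxia 1 and 1.02 without hyperoxia 4, which makes 2 receptors past both thresholds in each case. Neutrophil markers, 5 of 7 tested with 0 past the threshold in edgeR, summed to 10.7 to 41.4 CPM in normoxia and 18.5 to 90.4 CPM in hyperoxia. The part of any other cells in the Adgrg3 level was not tested.

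Per length, Adgrg1 stood below Adgrg3 in normoxia, at 3.95 ± 0.593 against 4.94 ± 0.119 FPKM. In hyperoxia it stood above, at 20.6 ± 1.95 against 9.85 ± 0.767 FPKM (SD, n = 4). The ratio of Adgrg1 to Adgrg3 was 0.649 to 0.951 in normoxia libraries and 1.77 to 2.50 in hyperoxia libraries. The third gene of this cluster, Adgrg5, lies upstream of both on the same strand (chr8:94923694-94943280) and ends 31470 bases before the start of Adgrg1. It was almost silent, with 25, 25, 21 and 8 counts in normoxia and 14, 9, 14 and 10 counts in hyperoxia, and did not pass the test (log2 fold change -0.77, SE 0.381, edgeR adjusted p = 0.144). Without normoxia 4, its lowest normoxia library, the log2 fold change was -1.04 with an adjusted p of 0.0234, which also makes 2 receptors past both thresholds. Of the 7 other protein-coding genes tested within 100 kb of the cluster, 0 rose and 2 fell in edgeR, Ccdc102a by 0.22 (adjusted p = 0.0148) and Kifc3 by 0.17 (adjusted p = 0.0408) on the log2 scale. Over all genes tested, 18.5% were higher and 17.1% lower, and 7 genes are too few to set against these shares. The log2 fold changes of these 7 neighbours ran from -0.22 to 0.11. Ccdc102a and Kifc3 were named after their values were seen.

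**Figure D4:**
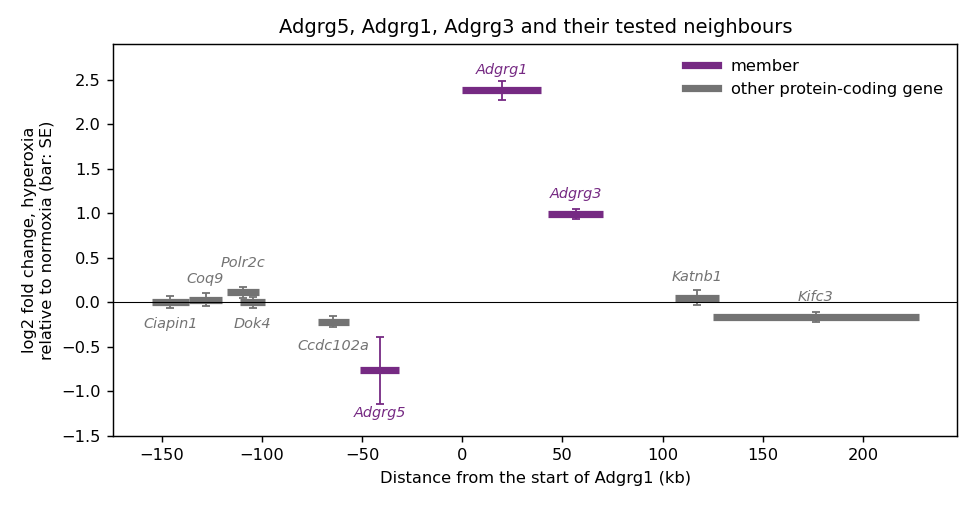
Log2 fold change (vertical axis, SE as bar) of Adgrg5, Adgrg1 and Adgrg3 (purple) and of the 7 tested protein-coding neighbours (grey), drawn over each gene's extent as distance in kb from the start of Adgrg1. Adgrg1 at 2.38 and Adgrg3 at 0.99 stand above neighbours that lie between -0.22 and 0.11.

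Because these adjacent genes moved in the same direction, the 250 bases before their annotated starts are shown (RefSeq, GRCm38.p6; 20 of the 27 receptors had an entry). Motifs were searched on both strands by their letters, which are TGANTCA for an AP-1 element, GGGCGG for a GC box, GGAATG for a TEAD element and TATAAA for a TATA box. They occurred in 6.73%, 33.0%, 12.6% and 12.3% of 32536 windows of this length. Matches are in capitals, and no match overlapped another. The window of the downstream of 2 annotated Adgrg1 starts (chr8:94984149-94984398, plus strand) held 2 matches to the AP-1 letters, and that of Adgrg3 (chr8:95017442-95017691, plus strand) held 1 GC box.
Adgrg1: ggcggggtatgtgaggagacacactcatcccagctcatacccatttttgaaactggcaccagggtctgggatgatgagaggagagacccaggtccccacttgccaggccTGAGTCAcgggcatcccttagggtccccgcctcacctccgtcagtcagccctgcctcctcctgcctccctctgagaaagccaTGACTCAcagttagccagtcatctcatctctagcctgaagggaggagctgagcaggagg
Adgrg3: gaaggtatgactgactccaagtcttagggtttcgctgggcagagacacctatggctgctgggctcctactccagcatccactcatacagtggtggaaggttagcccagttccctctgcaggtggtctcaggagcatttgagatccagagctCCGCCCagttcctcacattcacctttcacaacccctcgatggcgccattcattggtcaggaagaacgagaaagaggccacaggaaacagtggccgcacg

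The window of the upstream Adgrg1 start (chr8:94976859-94977108) held none of the 4 motifs. Among the windows of the other receptors, the AP-1 letters also occurred in those of Adgrf4 and Adgrg4. Adgrf4 had 2 matches and at most 6 counts in a library, and Adgrg4 had 1 match and no count. Both RefSeq starts of Adgrg1 lie inside the deposited extent of the gene, which begins at chr8:94974751. The bases before that position were not searched. Which start was used cannot be read from counts per gene, and a match to the letters is a description of the sequence, not of binding.

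The remaining receptors of subfamily G were low or did not pass. Adgrg6, or GPR126, known for its part in Schwann cell myelination, had 187, 199.9, 151 and 184 CPM in normoxia 1 to 4 and 177, 238, 214 and 214 CPM in hyperoxia 1 to 4 (log2 fold change 0.22, SE 0.0986, edgeR adjusted p = 0.103). Its groups overlapped. It passed without hyperoxia 1 (adjusted p = 0.0243). Adgrg2, known from the epididymis, had 9, 1, 3 and 3 counts in normoxia and 13, 18, 2 and 14 counts in hyperoxia, too few to be tested. It entered the test and passed both thresholds without normoxia 1 (log2 fold change 2.28, adjusted p = 0.0366) and without hyperoxia 3 (1.84, adjusted p = 0.0234). The summed level of the 7 genes of subfamily G was 24.0 ± 1.22 FPKM in normoxia and 47.9 ± 3.27 FPKM in hyperoxia (SD, n = 4 each).

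The latrophilins Adgrl1, Adgrl2 and Adgrl3 bind teneurins and FLRT proteins on neighbouring cells and were named after the spider toxin that acts on them. They did not move together. Adgrl2 (ENSMUSG00000028184, chr3:148815583-148990555, minus strand) had 782, 842, 784 and 848 CPM in normoxia 1 to 4 and 1369, 1471, 1417 and 1480 CPM in hyperoxia 1 to 4. Every hyperoxia library lay well above every normoxia library. It rose from 814 ± 35.5 to 1434 ± 51.6 CPM (SD, n = 4 each), with a log2 fold change of 0.82 (SE 0.0484, edgeR adjusted p = 1.01e-06). It was the only one of the 5 most abundant receptors per length that rose.

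Adgrl1 (ENSMUSG00000013033, chr8:83900105-83941954, plus strand) went the other way. It had 282, 328, 259 and 313 CPM in normoxia 1 to 4 and 207, 228, 233 and 222 CPM in hyperoxia 1 to 4, with no overlap. It fell from 296 ± 31.2 to 222 ± 11.1 CPM (SD, n = 4 each; log2 fold change -0.41, SE 0.0736, edgeR adjusted p = 0.00150). Of its exon bases 12.9% overlap Gm10644 on the other strand, which had 0.341 ± 0.222 CPM in normoxia and 0.452 ± 0.256 CPM in hyperoxia. Reads of such a pair cannot be told apart if strand was not used in counting, and the strand setting is not given in the sources used here.

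Adgrl3 (ENSMUSG00000037605, chr5:81020138-81825133, plus strand) had the smallest fold change of these 3 latrophilins. It had 92.1, 107, 85.9 and 101 CPM in normoxia 1 to 4 and 110, 122, 113 and 106 CPM in hyperoxia 1 to 4. The highest normoxia library lay just above the lowest hyperoxia library. It rose from 96.6 ± 9.33 to 113 ± 6.95 CPM (SD, n = 4 each; log2 fold change 0.23, SE 0.0719, edgeR adjusted p = 0.0316). The call was lost without normoxia 1 (adjusted p = 0.0802), normoxia 3 (0.0734), hyperoxia 2 (0.0938) or hyperoxia 3 (0.0528), and when libraries were scaled to the pan-endothelial markers (0.0852).

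Within the summed FPKM of these 3 latrophilins, 96.4 ± 6.19 in normoxia and 133 ± 4.87 in hyperoxia, Adgrl2 held 59.1% (57.3% to 61.2%) in normoxia and 75.8% (74.9% to 76.6%) in hyperoxia. The share of Adgrl1 was 35.3% (33.4% to 36.9%) and 19.4% (19.0% to 20.3%). Adgrl3 held 5.59% and 4.77%. Adgrl4, or ELTD1, belongs to subfamily L by sequence and is the receptor of this family best known from ECs. It had 310, 332, 327 and 359 CPM in normoxia 1 to 4 and 331, 371, 413 and 338 CPM in hyperoxia 1 to 4. These groups overlapped, and it did not pass the test (log2 fold change 0.13, SE 0.0736, edgeR adjusted p = 0.198).

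Adgrf5, or GPR116, was the most abundant receptor of the family per length in both groups. The gene (ENSMUSG00000056492, chr17:43360451-43459557, plus strand) had 3759, 3954, 3782 and 4198 CPM in normoxia 1 to 4 and 3045, 3127, 3198 and 3048 CPM in hyperoxia 1 to 4. The lowest normoxia library lay above the highest hyperoxia library. It fell from 3923 ± 203 to 3104 ± 73.2 CPM (SD, n = 4 each), with a log2 fold change of -0.34 (SE 0.0485, edgeR adjusted p = 0.000361). No exon of another annotated gene overlaps it. Type 2 pneumocytes also express Adgrf5. Of their 12 markers 10 were higher in hyperoxia, and the part of these cells in the Adgrf5 level was not tested. The other genes of subfamily F were barely detected, with at most 10 counts in any library in Adgrf1, Adgrf2, Adgrf3 and Adgrf4.

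Adgre5, or CD97, carries EGF-like modules and binds CD55 and Thy1. The gene (ENSMUSG00000002885, chr8:83723251-83741326, minus strand) had 821, 777, 741 and 751 CPM in normoxia 1 to 4 and 637, 690, 695 and 653 CPM in hyperoxia 1 to 4. All hyperoxia libraries lay below all normoxia libraries. It fell from 772 ± 35.6 to 669 ± 28.6 CPM (SD, n = 4 each; log2 fold change -0.21, SE 0.0501, edgeR adjusted p = 0.00800). Of its exon bases 23.8% overlap Ddx39 on the other strand, which had 72.9 ± 4.61 and 72.1 ± 8.80 CPM (adjusted p = 0.912).

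The other receptors of subfamily E mark myeloid cells. Adgre1, whose product is the macrophage antigen F4/80, had 10.7, 3.98, 12.5 and 7.24 CPM in normoxia and 12.96, 7.53, 8.36 and 12.2 CPM in hyperoxia (log2 fold change 0.26, SE 0.307, edgeR adjusted p = 0.555). Adgre4, found on monocytes and macrophages, had 1.42 to 6.10 CPM in normoxia and 1.11 to 4.97 CPM in hyperoxia (log2 fold change -0.31, SE 0.528, adjusted p = 0.684). Both genes overlapped between the groups. The summed level of 12 macrophage and monocyte markers overlapped too, with 192 to 276 CPM in normoxia and 200 to 287 CPM in hyperoxia, and of the 11 tested 3 were higher and 1 was lower.

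Subfamily A held 2 tested genes, and neither passed. Adgra2, or GPR124, had 290, 291, 281 and 295 CPM in normoxia 1 to 4 and 287, 320, 325 and 302 CPM in hyperoxia 1 to 4, with a log2 fold change of 0.09 (SE 0.0490, edgeR adjusted p = 0.167). Adgra3, or GPR125, had 201 to 231 CPM in normoxia and 206 to 227 CPM in hyperoxia (log2 fold change 0.01, SE 0.0549, adjusted p = 0.884). The sign for Adgra3 turned under other scalings, with -0.05 when libraries were scaled to the pan-endothelial markers. Adgra1 had no count in any library.

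Subfamily D was represented by Adgrd1, or GPR133, at 0.674, 0.569, 1.57 and 0.939 CPM in normoxia 1 to 4 and 0.457, 1.08, 0.343 and 0.388 CPM in hyperoxia 1 to 4 (log2 fold change -0.73, SE 0.451, edgeR adjusted p = 0.240). The genes of subfamily B, brain receptors known for the uptake of apoptotic cells and for synapses, were not tested. Of these Adgrb2 had 2, 3, 5 and 1 counts in normoxia and 4, 3, 3 and 1 counts in hyperoxia. Adgrv1, the very large receptor of hair cells in the inner ear, had 3, 4, 14 and 4 counts in normoxia and 2, 6, 4 and 6 counts in hyperoxia. Among the 12 genes not tested, 9 had counts, with at most 18 in a library, and Adgra1, Adgrb3 and Adgrg4 had none. A count of 0 allows up to 3 counts, or 0.166 to 0.184 CPM by library, which covers counting error only.

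The CELSR genes are a subfamily of these receptors with cadherin repeats and act in planar cell polarity. Their symbols do not start with Adgr, so they are in none of the counts and sums of the 27 genes. Celsr1 rose from 6.92 ± 1.60 to 17.6 ± 2.58 CPM (SD, n = 4 each; log2 fold change 1.35, SE 0.167, edgeR adjusted p = 0.000140), with normoxia libraries at 5.03 to 8.63 CPM and hyperoxia libraries at 14.9 to 20.9 CPM. Celsr2, the most abundant of the 3 by CPM, had 111 ± 16.5 and 101 ± 12.7 CPM (adjusted p = 0.397), and Celsr3 had 1.10 ± 0.290 and 0.905 ± 0.182 CPM (adjusted p = 0.467).

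Known extracellular and membrane partners of these receptors were read from a list of 33 genes. Of these 21 were tested, 10 rose and 1 fell, with a median log2 fold change of 0.46. At the same adjusted p, 18.5% of all genes tested were higher and 17.1% lower, and their median was -0.00400. Collagen IV, which binds Adgrg6, was by far the most abundant by CPM. Col4a1 rose from 8982 ± 380 to 12724 ± 373 CPM (log2 fold change 0.50, SE 0.0474, edgeR adjusted p = 2.07e-05) and Col4a2 from 5694 ± 196 to 8550 ± 295 CPM (0.59, SE 0.0463, adjusted p = 6.19e-06). The Wnt receptor genes Fzd4 and Lrp5, whose products work with Adgra2, had 627 ± 83.1 and 572 ± 27.3 CPM (adjusted p = 0.253) and 275 ± 11.4 and 312 ± 9.67 CPM (0.18, SE 0.0459, adjusted p = 0.0104). The 1 gene that fell was Lrp6, from 221 ± 18.8 to 149 ± 4.43 CPM (-0.57, SE 0.0612, adjusted p = 5.36e-05), with SD and n = 4 for each of these groups.

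Further partners were named for the receptors they bind, after their values were seen. Prnp, the prion protein gene, whose product activates Adgrg6, rose from 34.6 ± 3.04 to 120 ± 7.28 CPM (SD, n = 4 each; log2 fold change 1.79, SE 0.0703, edgeR adjusted p = 6.98e-08) with no overlap. Lama2, the laminin chain that also binds Adgrg6, rose from 3.91 ± 1.36 to 12.7 ± 4.74 CPM (1.70, SE 0.310, adjusted p = 0.00164). For Adgrg1, Col3a1 rose from 78.7 ± 27.9 to 140 ± 37.8 CPM (0.83, SE 0.251, adjusted p = 0.0247) with overlapping groups, while Tgm2 had 248 ± 8.74 and 278 ± 32.1 CPM (adjusted p = 0.117). For Adgre5, Cd55 had 10.7 ± 4.78 and 15.6 ± 1.98 CPM (adjusted p = 0.129) and Thy1 had 6.66 ± 2.47 and 9.17 ± 0.516 CPM (adjusted p = 0.125). For the latrophilins, Flrt2 had 9.58 ± 1.43 and 8.26 ± 1.42 CPM (adjusted p = 0.301) and Tenm4 had 0.412 ± 0.270 and 0.948 ± 0.516 CPM (adjusted p = 0.111). Reck, the partner of Adgra2, had 22.9 ± 0.906 and 21.4 ± 2.24 CPM (adjusted p = 0.381). Col3a1 and Lama2 are also genes of fibroblasts, whose 9 tested markers included 6 that were higher in hyperoxia, and the part of these cells in the values was not tested.

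Inside the cell the receptors couple to G proteins, arrestins and the ELMO and DOCK adaptors. All 19 genes of that list were tested, 5 rose and 5 fell, and the median log2 fold change was 0.01. Of all genes tested, 18.5% were higher and 17.1% lower at that adjusted p. The most abundant by CPM, the inhibitory subunit gene Gnai2, had 1249 ± 44.3 CPM in normoxia and 1258 ± 19.6 CPM in hyperoxia (SD, n = 4 each; edgeR adjusted p = 0.871). Arhgef12 had 857 ± 67.3 and 945 ± 30.8 CPM (adjusted p = 0.0866) and Gna13, a G protein subunit gene, had 306 ± 43.3 and 360 ± 35.4 CPM (adjusted p = 0.0925). The arrestin gene Arrb1 fell from 546 ± 22.8 to 399 ± 39.2 CPM (-0.45, SE 0.0688, adjusted p = 0.000509).

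**Figure D5:**
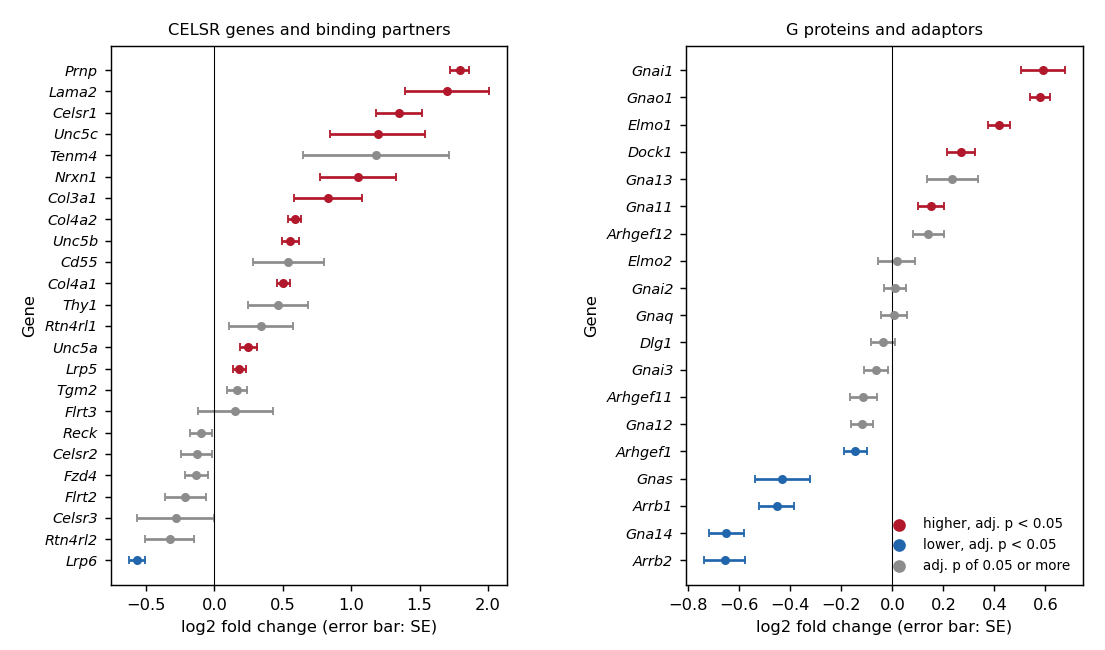
Log2 fold change, hyperoxia relative to normoxia, with the SE as bar, of the tested CELSR genes and binding partners (left) and of G protein and adaptor genes (right), coloured by direction where the adjusted p was under 0.05. Prnp leads the left panel at 1.79, and the right panel holds 5 genes in each direction.

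Marker levels of EC types and of other cells stand here as measured facts beside the receptors. At an adjusted p under 0.05, 18.5% of all genes tested were higher and 17.1% lower. Of 8 aerocyte capillary markers 8 were higher, with sums of 2576 to 3082 CPM in normoxia and 4500 to 5107 CPM in hyperoxia, and of 8 general capillary markers 5 were lower and 1 higher, with sums of 9991 to 11430 and 8455 to 9726 CPM. Of 7 lymphatic markers 6 were higher (1251 to 1340 and 1880 to 2147 CPM), and Lyve1 held most of that sum, with means of 954 and 1602 CPM. Of the 18 pan-endothelial markers 6 were higher and 4 lower. Outside the endothelium, 10 of 12 type 2 and 9 of 12 type 1 pneumocyte markers were higher, and 1 type 1 marker was lower. The type 1 sum was 2141 to 2432 and 2322 to 2969 CPM. Most of it was Emp2, Clic5 and Vegfa, with means of 951, 700 and 555 CPM in normoxia and 1112, 675 and 429 CPM in hyperoxia. Vegfa was the 1 lower marker, and Emp2 and Clic5 did not pass. The 9 higher markers had means of at most 42.2 CPM in normoxia and 153 CPM in hyperoxia, so the sum says little about them. Of 9 tested mural markers 7 were higher (59.2 to 119 and 132 to 263 CPM). Of 3 tested airway markers 1 was higher (58.3 to 79.5 and 78.5 to 109 CPM, with Krt5 at 0). That marker, Tppp3, held most of the airway sum, with means of 65.6 and 92.7 CPM. Scgb1a1 and Foxj1 had means of at most 1.24 CPM. Of 5 mesothelial markers 2 were tested, and both were higher (sums of 0.552 to 2.14 and 3.95 to 11.9 CPM). Krt19 held most of that sum, with means of 0.899 and 7.24 CPM, against 0.266 and 1.47 CPM for Msln. The rest of that list had too few counts to be tested, with means of at most 0.0555 CPM in either group. Of 3 tested Schwann and neuronal markers 0 passed in edgeR (18.5 to 25.0 and 22.9 to 24.7 CPM). The part of these shifts in the receptor levels was not tested. Scaling libraries to the pan-endothelial markers left Adgrg1, Adgrg3, Adgrl2, Adgrf5, Adgre5 and Adgrl1 past the test. That scaling changes all genes of a library by the same factor, so it cannot separate the RNA of different cell types.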

How the data were processed

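Gene counts and FPKM of 54532 genes in 8 libraries were deposited by the authors as whole-number counts per gene and as FPKM with annotation columns. The submitters' processing notes name HISAT2 2.0.5, featureCounts 1.5.0-p3 and build mm10. Strand use and the handling of multi-mapping reads are not given in the sources used here. RNA extraction is given as TRIzol in the methods and as an RNeasy kit in the labels. Groups and replicate numbers came from the sample titles.

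Counts were tested with edgeR 4.0.16 in R 4.3.3 (TMM normalization, filterByExpr with its default minimum count of 10, quasi-likelihood F test, group as the only term, two-sided), which kept 15564 genes. The Benjamini-Hochberg adjustment of p-values covered these genes. The biological coefficient of variation was 0.120. CPM is the count divided by the TMM-normalized library size. A positive log2 fold change means a higher level in hyperoxia, and its SE was derived from the F statistic. The deposited FPKM served to compare levels between genes and, with pseudocounts of 0.1 and 1, for an alternative with limma 3.58.1. DESeq2 1.42.0, the tool of the study, was another alternative. Apart from the limit that a count of 0 allows, no interval from counting was used, because libraries of 1 group differed by more than counting noise. Library totals of 16098086 to 18300730 counts limit the precision for genes of a few counts.

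The 27 genes were taken by gene symbol and biotype, a rule that uses no measured value. However, this family and the gene lists were picked for study with earlier results of these data known. Values in every library are given for receptors past the p threshold, for the 5 with the highest mean FPKM and for the best measured of each subfamily, and other lists are named by at most 4 genes of highest mean CPM, with exceptions stated. On simulated counts for 15564 genes, used to test the scripts, 75 of 100 genes with a log2 fold of 1 and 94 of 100 with a log2 fold of 2 were called with the right sign, besides 9 unchanged genes. The alternatives were 20 fits with other scalings, filters and tools, a replicate block, protein-coding genes only and each library left out. Of the gene identifiers 54409 were found in GENCODE M21, 53499 with the same coordinates.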

Additional observations from a re-analysis of the deposited data

Results flagged for a closer look

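Dixon's test at the 95% level was run on 66 groups of 4 libraries, and 3 passed, where chance gives 3.3 (1 in 20). Adgrd1, near the detection limit, stood at 1.08 CPM in hyperoxia 2, while hyperoxia 1, 3 and 4 ran from 0.343 to 0.457 CPM. The summed level of the mural cell markers was 119 CPM in normoxia 1, while normoxia 2, 3 and 4 ran from 59.2 to 69.2 CPM. The summed level of the neutrophil markers was 90.4 CPM in hyperoxia 1, while the rest of that group ran from 18.5 to 24.0 CPM.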

How the results depend on the processing

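The number of receptors past an adjusted p under 0.05 was 7, and 6 to 8 over 20 alternatives. Adgrg1, Adgrg3, Adgrl2, Adgrf5, Adgre5 and Adgrl1 passed in each of the 20, with log2 fold changes of 2.13 to 2.47 for Adgrg1 and -0.40 to -0.31 for Adgrf5. The number past p and fold was 1, and 2 without the filter on low counts, where Adgrg3 reached a log2 fold change of 1.001; leaving out single libraries gave 1 to 2. The median log2 fold change of 0.09 was 0.0311 when libraries were scaled to the pan-endothelial markers, which moved the median of all genes to -0.06, and 0.0109 over the 24 receptors tested without the filter, and it ran from 0.06 to 0.13 with single libraries left out. The log2 fold change of Adgra3, 0.01, turned to -0.00865 under upper-quartile factors, -0.00997 under library totals, -0.0480 under the pan-endothelial scaling and -0.00495 with protein-coding genes only, and ran from -0.0206 to 0.0464 with single libraries left out. That of Adgre4 ran from -0.93 to 0.30, the latter without normoxia 3. The p threshold was missed by Adgrl3 in limma on log2(FPKM + 0.1) and log2(FPKM + 1) (adjusted p = 0.0546 and 0.0567) and passed by Adgrg6 without the filter (adjusted p = 0.0476). Beyond what fewer genes or samples explain by construction, the cause was not tested. With the replicate number as a block, 7 receptors passed p and 1 passed both thresholds, with a median of 0.09. The sample titles give no link between same-numbered libraries beyond the number. Deviations of same-numbered libraries correlated at 0.119, 0.0361, -0.125 and -0.140, and 1 of 4 numbers matched best with itself. So few values cannot show whether same-numbered libraries were handled together. DESeq2 called 7 and 1. Depth limits the 12 receptors not tested, with at most 18 counts in a library.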
